A study of Mus musculus with 3 samples.

Results

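Cidea-positive hepatocyte nuclei are the nuclei of the MASLD library that passed a hepatocyte filter and held at least 1 Cidea UMI, a UMI being 1 counted RNA molecule. The filter set a minimum of total UMIs, so that the shallowest nucleus kept held 1547, and required at most 5% mitochondrial UMIs and at most 2 UMIs summed over 9 genes of other liver cells (Stab2, Ptprb, Clec4f, Cd5l, Adgre1, Reln, Ntm, Skap1 and Gpm6a), so that hepatocyte is the class left by exclusion. It kept 6032 of the 6928 barcodes of the MASLD library, and 826 of these nuclei were Cidea-positive, out of 21665 barcodes in the whole series. The other 5206 nuclei held no Cidea UMI and are called Cidea-zero. The members were selected on the Cidea UMIs themselves, so the Cidea level is a description of the choice and not a result.

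The series addressed DNMT1, a DNA methyltransferase, in metabolic dysfunction-associated steatotic liver disease (MASLD), by single-nucleus RNA sequencing of frozen liver. It held 1 library per group, from male C57BL/6N mice aged 8 weeks at the start. The MASLD library came from mice given a MASLD-inducing diet for 18 weeks with a drink of 18.9 g/L glucose and 23.1 g/L fructose, the SD library from mice on standard diet, and the Aza-TdC library from mice on the MASLD regimen that also received 2 mg per kg of the nucleoside analogue Aza-TdC daily by oral gavage from week 14 to week 18. The labels do not say how many animals went into a library. No comparison below has a biological replicate. Nuclei of 1 library are not replicates, and no p-value is given. All intervals are 95% intervals that cover counting error only.

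Cidea belongs with Cidec and Cideb to the CIDE family, proteins of the surface of lipid droplets and the endoplasmic reticulum. Cidea and Cidec act where 2 droplets touch and move lipid from the smaller to the larger one, which gives large droplets. Cidea is abundant in brown fat, low in healthy liver and known to be higher in fatty liver. Hepatocytes also differ along the liver lobule: those near the portal vein (periportal) specialise in urea synthesis and gluconeogenesis, and those near the central vein (pericentral) in drug metabolism and glutamine synthesis.

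Cidea UMIs were spread unevenly over the nuclei. Of the 826 members, 503 held exactly 1 Cidea UMI, which is the value just inside the rule, 149 held 2, 77 held 3 and 97 held 4 or more, up to 13 in 1 nucleus. The 323 nuclei with 2 or more made up 39.1% of the members and carried 67.8% of the 1563 Cidea UMIs. The members were 13.7% (12.8 to 14.6, Clopper-Pearson) of hepatocyte nuclei, and the Cidea level over all hepatocyte nuclei was 37.8 counts per 1000000 UMIs (CPM; exact Poisson 35.9 to 39.7). Had all nuclei carried that level and differed in depth alone, 22.3% would have held a Cidea UMI and 3.20% 2 or more, against the 5.35% counted.

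Detection moved with sequencing depth. The share of Cidea-positive nuclei went from 6.13% (4.35 to 8.35) in the shallowest depth decile, with a median of 2697 UMIs, to 20.9% (17.7 to 24.4) in the ninth and 20.2% (17.1 to 23.6) in the deepest, while the Cidea level stayed between 30.3 and 45.9 CPM in the 10 deciles. Cidea-zero nuclei therefore include nuclei in which Cidea was not detectable at their depth. After each nucleus was thinned to the UMI minimum of the filter, 4.74% (4.22 to 5.31) were positive. Members had a median of 7197 UMIs against 6234 in Cidea-zero nuclei. All log2 ratios and CPM of the 2 sets compared below are matched on depth decile. Percents of nuclei in which a gene was detected are not matched on depth.

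**Figure D1:**
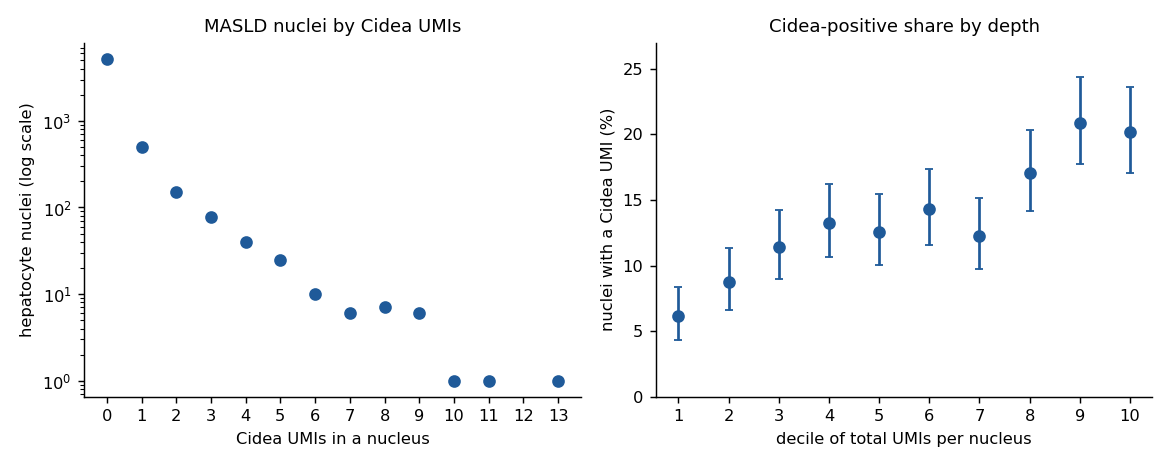
Left, number of MASLD hepatocyte nuclei (log scale) at each count of Cidea UMIs. Right, percent of nuclei with a Cidea UMI in each decile of total UMIs, with 95% Clopper-Pearson bars; the share is 6.13% in the shallowest decile and over 20% in the 2 deepest.

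A background was measured in nuclei of other cells. In the 241 nuclei of the same library with 10 or more UMIs over the 9 other-cell genes, which should lack Cidea, 6 held a Cidea UMI (2.49%, 0.919 to 5.34). Their median depth was 2736 UMIs and their Cidea level 8.998 CPM (3.88 to 17.7). Whether these UMIs came from free RNA or from doublets was not tested. The hepatocyte depth decile of about the same depth stood at 6.13%, and after thinning to that minimum the shares were 4.74% in hepatocyte nuclei and 1.66% (0.454 to 4.19) in the other-cell nuclei. In the other 2 libraries the same filter found 13 Cidea-positive of 6837 hepatocyte nuclei in SD (0.190%, 0.101 to 0.325) and 22 of 6784 in Aza-TdC (0.324%, 0.203 to 0.491). Their Cidea levels were 0.410 CPM (0.243 to 0.648) and 0.584 CPM (0.391 to 0.839), and 1 SD nucleus held 6 of the 18 SD UMIs. The Cidea-positive share thus stood far higher in the MASLD library than in either, in libraries whose median depths were 5912, 6360 and 6766.5 UMIs for SD, MASLD and Aza-TdC; with 1 library each, the group and the library cannot be told apart.

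The members carried hepatocyte markers. Of 10 markers, 9 (Alb, Apob, Apoa1, Cps1, Ttr, Trf, Cyp2e1, Fgb and Pck1) were detected in between 85.5% and 100% of members, and Serpina1e in 3.87%. Markers of macrophages, endothelium and stellate cells were low. The 6 macrophage markers summed to 14.2 CPM in members, 12.6 CPM in Cidea-zero nuclei and 2766 CPM in the other-cell nuclei. The 6 endothelial markers summed to 18.8, 16.1 and 3148 CPM and the 5 stellate markers to 14.3, 14.9 and 2127 CPM in the same order. Of the adipocyte markers, Adipoq and Lep had 0 UMIs in members, which allows up to 0.463 CPM by a count of 3, and Plin1 had 3 UMIs. The fourth, Cfd, had 11 UMIs (1.70 CPM, 0.847 to 3.04) against 0.494 CPM in Cidea-zero nuclei. The 5 cholangiocyte markers summed to 101, 113 and 41.6 CPM in members, Cidea-zero and other-cell nuclei, nearly all of it from Pkhd1 (97.8 and 106 CPM in members and Cidea-zero nuclei), with Epcam, Krt19 and Krt7 at 1, 2 and 3 UMIs in members. The gene Themis, known from T cells, stood at 120 CPM in members and is described below, while the T and NK markers Nkg7, Skap1 and Cd247 had 0, 2 and 3 UMIs in members. Hemoglobin mRNA, which nuclei should lack, was even between the sets (Hbb-bs 137 CPM in members and 139 CPM in Cidea-zero nuclei) but lower in the SD and Aza-TdC libraries (8.29 and 13.8 CPM). Matched on depth, members and Cidea-zero nuclei had medians of 7194 and 7209 UMIs, 3220 and 3217 genes, and 0.187% and 0.180% mitochondrial UMIs. Between 9 and 15 cell barcodes were shared by each pair of libraries, and 4 of the members' barcodes occurred in another library.

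Cidea-positive nuclei were concentrated towards the pericentral end of the lobule. Each nucleus was placed by the share of pericentral UMIs among its UMIs over a periportal and a pericentral gene list, neither of which contains Cidea; this is a continuous score and its deciles are ranges, not cell types. The median share was 41.7% in members and 24.8% in depth-matched Cidea-zero nuclei, and 734 of 826 members lay above the Cidea-zero median of 24.2% before matching. From the most periportal decile on, the Cidea-positive share was 2.65%, 3.31%, 2.48% and 3.33% in the first 4 deciles. It was 10.3% (8.00 to 12.98) in the fifth and 15.3% (12.5 to 18.5) in the sixth, followed by 23.2%, 23.1% and 30.0% (26.4 to 33.8) in the next 3 and 23.3% (20.03 to 26.9) in the most pericentral. Median depth lay between 5909 and 6677 UMIs in the 10 zone deciles, so depth hardly moved with this order.

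**Figure D2:**
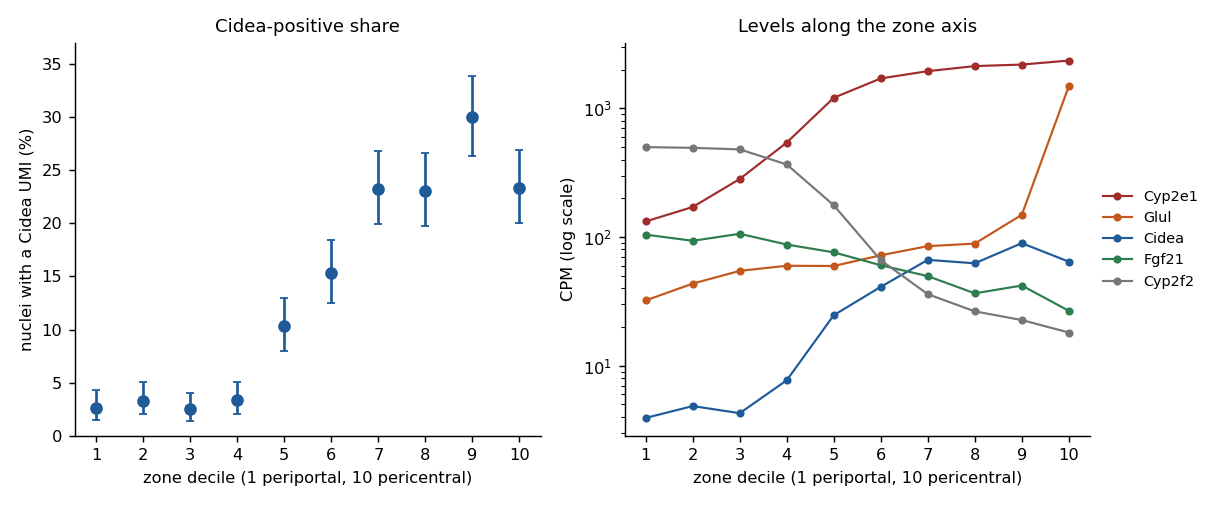
Left, percent of MASLD hepatocyte nuclei with a Cidea UMI in each zone decile, with 95% Clopper-Pearson bars. Right, CPM (log scale) of Cidea, the pericentral genes Cyp2e1 and Glul, the periportal gene Cyp2f2 and Fgf21; the Cidea level is highest in decile 9 (89.6 CPM), and Glul stands at 1487 CPM in decile 10 against 149 CPM in decile 9.

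The first 4 deciles held 71 members (8.596%) at a Cidea level of 5.15 CPM (4.09 to 6.39), which is not above the 8.998 CPM of the other-cell nuclei, so it is not read as expression. In these 4 deciles 0.332% of nuclei held 2 or more Cidea UMIs, where an equal level would give 0.0669%; of those 8 nuclei, 7 lay in decile 4. Deciles 5 to 10 held 755 members (91.4%) at 58.2 CPM (55.3 to 61.3). All but 8 of the 323 nuclei with 2 or more Cidea UMIs lay there. As a description, since Cidea UMIs chose the members, Cidea was also uneven within the pericentral range. In deciles 7 to 10, 24.9% of nuclei were positive at 70.7 CPM, where equal levels would give 37.8%, a ratio of 0.659. Among the 1055 other genes with 0.8 to 1.2 times the Cidea level in these nuclei, the same ratio had a median of 0.954 and ran from 0.627 to 1.03, and it was below that of Cidea for Robo1 and Tbx3os1, which are named here after their values were seen. Over all hepatocyte nuclei the Cidea ratio was 0.614, below the ratio of all but 7 of 1284 genes of like level (median 0.957).

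Within the most pericentral decile, the Cidea level was lower in nuclei with 5 or more Glul UMIs. Glul, glutamine synthetase, and Slc1a2, a glutamate transporter, mark the hepatocytes next to the central vein. Within the most pericentral decile, the 280 nuclei with 5 or more Glul UMIs had 33.4 CPM of Cidea (26.1 to 42.2), and 13.9% (10.1 to 18.5) were positive. The 324 nuclei of that decile with fewer Glul UMIs had 94.4 CPM (81.9 to 108), and 31.5% (26.5 to 36.8) were positive, at a lower median depth (6141.5 against 7225 UMIs). Lgr5, an R-spondin receptor of pericentral hepatocytes and also highest in that decile, went the other way. Over the whole library, 28.2% (25.0 to 31.6) of the 740 nuclei with an Lgr5 UMI were Cidea-positive, where their depths alone gave 15.2%. Their Cidea level was 68.5 CPM (62.0 to 75.5). Of the 1350 nuclei with 3 or more UMIs of the periportal Cyp2f2, 4.15% (3.15 to 5.36) were positive, where their depths alone gave 15.2%. Among the nuclei of that decile, the 116 with no Glul UMI had 67.2 CPM (49.7 to 88.9), with 22.4% positive, at a median depth of 5622.5 UMIs. Over the whole library, nuclei with 5 or more Glul UMIs had 37.9 CPM and those with none, which include the periportal ones, 30.7 CPM.

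Across the genome, 9869 genes other than Cidea had at least 300 UMIs over the hepatocyte nuclei and were measured. A gene was counted as higher or lower in members where the depth-matched log2 ratio of CPM, members over Cidea-zero nuclei, was at least 0.5 or at most -0.5. This found 141 higher genes (1.43%) and 243 lower genes (2.46%), and the median log2 ratio of all measured genes was -0.02. Most of them followed the lobule: 124 of the 141 higher genes (87.9%) were also higher by that amount in the pericentral than in the periportal tertile of Cidea-zero nuclei, as were 6.05% of all measured genes, and 177 of the 243 lower genes (72.8%) were higher in the periportal tertile, as were 5.97% of all. Both contrasts use the Cidea-zero nuclei. When members were matched to Cidea-zero nuclei of the same depth decile and the same zone decile, 28 genes were higher (0.284%) and 88 lower (0.892%), among them 25 of the 141 and 66 of the 243.

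The 12 highest named genes had log2 ratios between 1.03 and 1.33. Themis (chromosome 10, 28668360 to 28883818, GRCm38) encodes a protein of T cell receptor signalling in the thymus. It stood at 120 CPM in members (111 to 128) and 50.7 CPM in Cidea-zero nuclei, a log2 ratio of 1.24 (1.11 to 1.36), and was higher in 10 of 10 depth deciles. Without depth matching, it was detected in 36.6% of members and 14.3% of Cidea-zero nuclei. Its level in the pericentral and periportal tertiles of Cidea-zero nuclei was 120 and 3.63 CPM. In SD and Aza-TdC hepatocyte nuclei it stood at 6.99 and 7.39 CPM. Themis was thus a pericentral transcript of the MASLD library, present in nuclei with few or no UMIs of the other T and NK markers given above.

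Esrrg (chromosome 1, 187608791 to 188214885), an orphan nuclear receptor of energy metabolism, had 613 CPM in members and 289.6 CPM in Cidea-zero nuclei, a log2 ratio of 1.08 (1.03 to 1.14). Adgrg2, an adhesion G protein-coupled receptor, had a log2 ratio of 1.24 (65.1 against 27.5 CPM). Pknox2, a homeodomain transcription factor, had 1.16, and Prex2, an exchange factor for the GTPase Rac, 1.03. Zfp992 (1.30), a zinc finger gene of a family with near-identical copies, and Mup18 (1.15), of the likewise repetitive major urinary protein cluster, carry uncertainty from reads shared between copies. Aatk (1.19), Mpped2 (1.30), the sialyltransferase St3gal6 (1.18) and Gnai1 (1.09), an inhibitory G protein subunit, completed the group with Saa2. Matching on zone left log2 ratios of 0.23 to 0.67 for the 11 genes other than Saa2, with Themis at 0.43 (0.30 to 0.56) and Esrrg at 0.30 (0.24 to 0.35). At least 0.5 remained for Mup18 (0.67), Mpped2 (0.53) and Zfp992 (0.51), and the interval reached below 0 for St3gal6 and Gnai1.

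The serum amyloid genes rested on few nuclei. Saa2 (chromosome 7, 46751790 to 46754313), an acute phase protein, had a log2 ratio of 1.33 (25.8 against 10.3 CPM) and 1.46 with zone matching, and its neighbour Saa1 (46740497 to 46742980) had 0.82. Reads of these 2 similar genes may be split uncertainly. However, 5 nuclei carried 71.3% of the 167 Saa2 UMIs and 63.5% of the 252 Saa1 UMIs of the members. Without those 5 nuclei the log2 ratios were -0.46 for Saa2 and -0.62 for Saa1, so their direction depended on these nuclei. Here and in the later values without the highest members, the Cidea-zero level was kept whole, which lowers the ratio by construction. In Cidea-zero nuclei, the 5 highest carried 30.3% of the Saa2 UMIs and 14.6% of the Saa1 UMIs. Detection, not matched on depth, was 5.21% in members and 3.80% in Cidea-zero nuclei for Saa2, and 8.96% and 8.93% for Saa1. Spp1, osteopontin, had a log2 ratio of 0.60, but 45 of its 51 UMIs lay in 1 member nucleus, without which the ratio was -2.48. Spp1 was also concentrated in Cidea-zero nuclei, where 1 nucleus held 109 UMIs and the 5 highest carried 58.0%. For Themis, by contrast, the ratio without its 5 highest members was 1.12.

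The 12 lowest named genes had log2 ratios from -2.89 to -1.84, and 11 of them were periportal. Cyp2f2 (chromosome 7, 27119909 to 27133660), a periportal cytochrome P450, had 65.8 CPM in members and 236 CPM in Cidea-zero nuclei, a log2 ratio of -1.84 (-1.99 to -1.70). Chrm3 (chromosome 13, 9875486 to 10360847), a muscarinic acetylcholine receptor, had 27.1 and 138 CPM and a log2 ratio of -2.35 (-2.57 to -2.13). Its level was 304 CPM in the periportal and 9.31 CPM in the pericentral tertile of Cidea-zero nuclei. Grm8 (-2.36), a glutamate receptor, Tiam2 (-2.48), a Rac exchange factor, and Ncam2 (-2.03), an adhesion molecule, were also low in members. The group held enzymes of amino acid and amine breakdown: Sds (-1.84) and Sdsl (-2.31), serine dehydratase and its relative, Gldc (-1.85), of glycine cleavage, and Etnppl (-1.98), which cleaves phosphoethanolamine. Cryl1 (-1.87) and the lysosomal protease Ctsc (-2.07) completed it with Arhgap15. With zone matching Sds (-0.01) and Cryl1 (-0.06) were near 0, Chrm3 stood at -0.61 (-0.84 to -0.38), Tiam2 at -1.44 and Sdsl at -0.89. Cyp2f2, Sds, Sdsl, Etnppl and Ctsc are in the periportal list of the zone score, so the matching partly sets their zone-matched values.

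**Figure D3:**
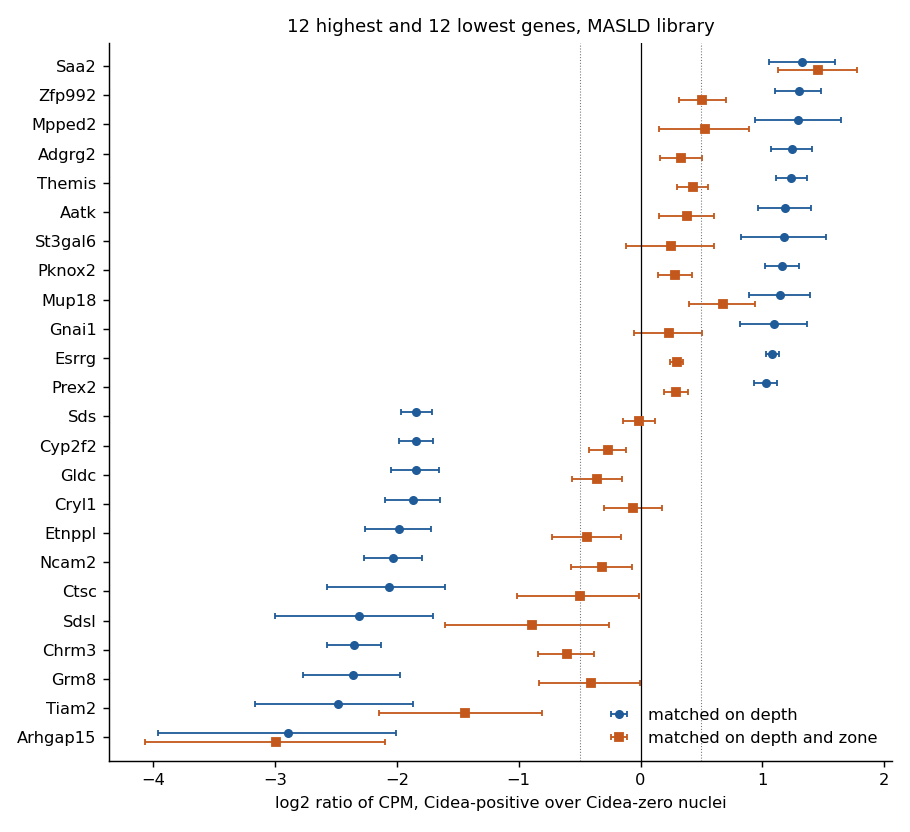
Depth-matched log2 ratios of CPM (Cidea-positive over Cidea-zero nuclei of the MASLD library, circles) and the same matched also on zone decile (squares) for the 12 highest and 12 lowest named genes, with 95% counting intervals. Dotted lines mark 0.5 and -0.5. Apart from Saa2 and Arhgap15, zone matching moved each gene towards 0. For Cyp2f2, Sds, Sdsl, Etnppl and Ctsc, members of the periportal list of the zone score, the matching partly sets this.

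Arhgap15, a GTPase-activating protein abundant in leukocytes, had the lowest ratio, -2.89 (1.54 against 11.4 CPM), and was not periportal (23.2 CPM in the pericentral and 10.9 CPM in the periportal tertile). With zone matching, Arhgap15 (-2.99), Dock10 (-2.24), Hdac9 (-2.03), Ptprc (-1.39), H2-Aa (-1.27) and Cd74 (-1.01) were among the 12 lowest; they are known from leukocytes and were chosen by these values, while the 6 macrophage markers above summed to slightly more in members. Nuclei with 5 or more UMIs over the macrophage and lymphocyte lists without Themis had passed the hepatocyte filter, 1 of 826 members (0.121%) and 58 of 5206 Cidea-zero nuclei (1.11%, 0.847 to 1.44). Matched on depth alone, the log2 ratios were -2.89 for Arhgap15, -2.08 for Dock10, -1.66 for Hdac9, -1.15 for Cd74, -1.35 for H2-Aa and -1.38 for Ptprc. Without the nuclei with 5 or more such UMIs they were -2.01, -0.49 (-2.44 to 0.96), -0.47, -0.06, -0.37 and 1.05 (-0.04 to 2.03) in the same order. The Cyp2f2 and Themis ratios were -1.84 and 1.24 without those nuclei. Cd74 and Ptprc are in the lists used for the removal, so their change is partly set by it.

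Among the genes called from all members, the depth-matched contrast was wider for nuclei with more Cidea UMIs. Of the 141 higher genes, 102 stood further above Cidea-zero nuclei in the 323 nuclei with 2 or more Cidea UMIs than in the 503 with 1, and of the 243 lower genes 189 stood further below. These genes were called with the same nuclei, and the share over all measured genes was not counted. The values were not matched on zone. Nuclei with 2 or more UMIs lay almost wholly in zone deciles 5 to 10, which held 91.4% of all members. Themis had 101 CPM at 1 UMI and 146 CPM at 2 or more, against 50.7 CPM at 0. The Cyp2f2 log2 ratio was -1.38 at 1 UMI and -2.93 at 2 or more, and that of Chrm3 was -1.73 and -4.44. With 2 or more UMIs as the rule, 224 genes were higher and 495 lower. That rule rests on 323 nuclei, and wider counting error by itself moves more genes past 0.5, so these counts are not read as a dose response.

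Most genes of Cidea's own family and of lipid droplets lay within 0.5 of Cidea-zero nuclei, and 4 lay outside. Of 24 genes of the CIDE, FIT and lipid droplet coat list, 20 other than Cidea were measured; 2 were higher, 2 lower (1.43% and 2.46% of all measured genes), and the median log2 ratio was 0.13 (order-statistic interval -0.03 to 0.25). Cidec, the partner of Cidea in droplet fusion (chromosome 6, 113424634 to 113435760), had 261 CPM in members and 216 CPM in Cidea-zero nuclei, a log2 ratio of 0.28 (0.20 to 0.35). Cideb, which acts in VLDL loading, had 77.3 and 80.5 CPM (-0.06, -0.20 to 0.08). Cidec was thus slightly higher and Cideb not distinguishable, whereas Cidea itself was absent from the comparison nuclei by rule.

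Among droplet coat proteins, Plin4 (chromosome 17, 56100591 to 56109803) had 479 CPM in members and 271 CPM in Cidea-zero nuclei, a log2 ratio of 0.82 (0.76 to 0.88). Plin2, the main coat protein of liver droplets, had 457 and 438 CPM (0.06, 0.01 to 0.12), and Plin5 0.01 and Plin3 -0.14. Fitm1, a protein of the endoplasmic reticulum in droplet budding, had 36.4 against 24.2 CPM (0.59), and Fitm2 had 0.22. The lower genes were Hsd17b13, a droplet-bound dehydrogenase, with 201 against 496 CPM (-1.31, -1.39 to -1.22), and Pnpla3, a droplet lipase, with 16.2 against 39.8 CPM (-1.30, -1.60 to -1.01). Of the lipolysis genes, Pnpla2, Lipe and Mgll had 0.23, 0.32 and 0.25, and the inhibitor G0s2 0.06. With zone matching none of the 20 passed 0.5 in either direction. Plin4 stood at 0.22, Hsd17b13 at -0.22, Pnpla3 at -0.02 and Cidec at 0.06 (-0.02 to 0.14). Hsd17b13 is in the periportal list of the zone score, so the matching partly sets its value.

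**Figure D4:**
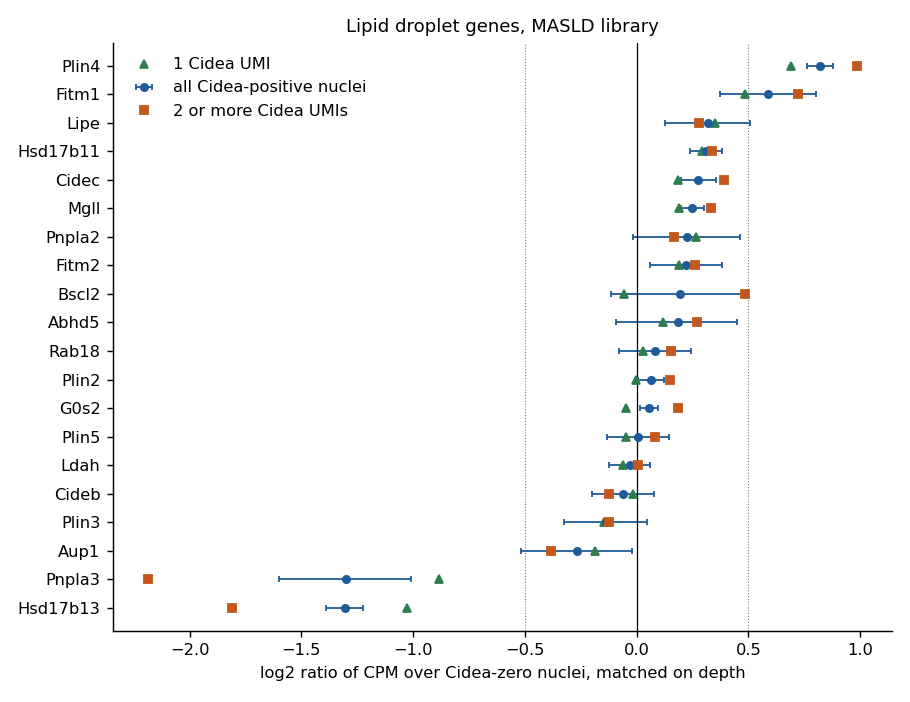
Depth-matched log2 ratios of CPM over Cidea-zero nuclei for the 20 measured lipid droplet genes, in all members (circles, with 95% counting intervals), members with 1 Cidea UMI (triangles) and with 2 or more (squares). Plin4 and Fitm1 lie above 0.5, and Hsd17b13 and Pnpla3 below -0.5.

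The counts for the lipid pathways that follow stand beside 1.43% higher and 2.46% lower among all measured genes. Above those shares stood the uptake list (4 of 14 higher), the lipogenesis list (3 of 27 lower) and the bile acid list (4 of 25 higher). With zone matching 1 gene of the uptake list passed 0.5, and none of the lipogenesis or bile acid list did in either direction. In the fatty acid uptake and PPARG target list, 4 of 14 measured genes were higher: the lipoprotein receptor Vldlr (0.84), Anxa2 (0.79), Clstn3 (0.66) and the fatty acid transporter Slc27a1 (0.59). With zone matching these 4 genes stood at 0.12 (-0.29 to 0.52), 0.51 (0.11 to 0.89), 0.17 (0.02 to 0.32) and 0.002 (-0.29 to 0.28) in that order. The depth-matched Anxa2 value was 0.26 without its 5 highest members, with the Cidea-zero level kept whole. Cd9 was lower (-0.52), and the list median was 0.14. Pparg, a nuclear receptor with Cidea among its known targets, had 143 against 111 CPM (0.37, 0.26 to 0.47), and 0.05 with zone matching. The fatty acid translocase Cd36 had 0.21. Of 36 PPARA target and fatty acid oxidation genes, none was higher and 1 lower: Fgf21, a hormone secreted by stressed liver, had 44.7 against 74.6 CPM (-0.74, -0.92 to -0.56). It stood at -0.18 (-0.37 to 0.008) with zone matching. Fgf21 was highest at the periportal end (104 CPM in the first zone decile and 26.7 CPM in the last), and 12.1% (10.5 to 13.8) of the 1632 nuclei with an Fgf21 UMI were Cidea-positive, against 14.97% from their depths.

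In de novo lipogenesis, 3 of 27 genes were lower, Pnpla3, Acly (-0.86), which makes cytosolic acetyl-CoA, and Mid1ip1 (-0.81), and none was higher. Scd1 had -0.09. With zone matching Acly stood at -0.16 (-0.37 to 0.04) and Mid1ip1 at -0.39 (-0.72 to -0.08). None of 15 triglyceride synthesis genes passed 0.5 in either direction, with Acsl1 at 0.34. Of 23 VLDL and apolipoprotein genes, Apoa4 was lower (-0.66; 0.03 with zone matching). Of 25 bile acid and sterol genes, the transporters Abcc4 (0.91) and Slco1a1 (0.64) and the hydroxylases Cyp7b1 (0.56) and Cyp7a1 (0.54), the latter rate-limiting for bile acid synthesis, were higher and Akr1d1 (-0.53) lower. With zone matching Cyp7a1 turned to -0.21, while Abcc4, Slco1a1 and Cyp7b1 stood at 0.08, 0.07 and 0.05. Cyp7a1 and Apoa4 are in the lists that define the zone score, so the matching partly sets their zone-matched values.

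The zonation lists gave the widest medians. Of 24 measured periportal genes, 18 were lower and none higher (median -0.69, -1.65 to -0.54). Of 26 pericentral genes, 11 were higher and none lower (median 0.43, 0.28 to 0.62), with Cyp2c37 (0.91), Cyp2c54 (0.88), Lgr5 (0.83) and Cyp2c50 (0.79) highest; the Cyp2c genes are close paralogs. Glul (-0.13) and Slc1a2 (-0.42) were not higher, and at matched zone decile they stood at -0.85 (-0.93 to -0.76) and -1.25 (-1.36 to -1.14). Because these lists define the zone score, their zone-matched medians of -0.14 and -0.07 are set by the matching. Glul and Slc1a2 are in the pericentral list, so the matching partly sets their zone-matched values as well. In members, 5 nuclei carried 18.1% of the Glul UMIs and 5 carried 28.3% of the Slc1a2 UMIs. Of 36 urea cycle and amino acid genes, 12 were lower and none higher, among them Hal (-1.79), Arg1 (-0.61), Ass1 (-0.57) and Cps1 (-0.54); the median was -0.16.

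**Figure D5:**
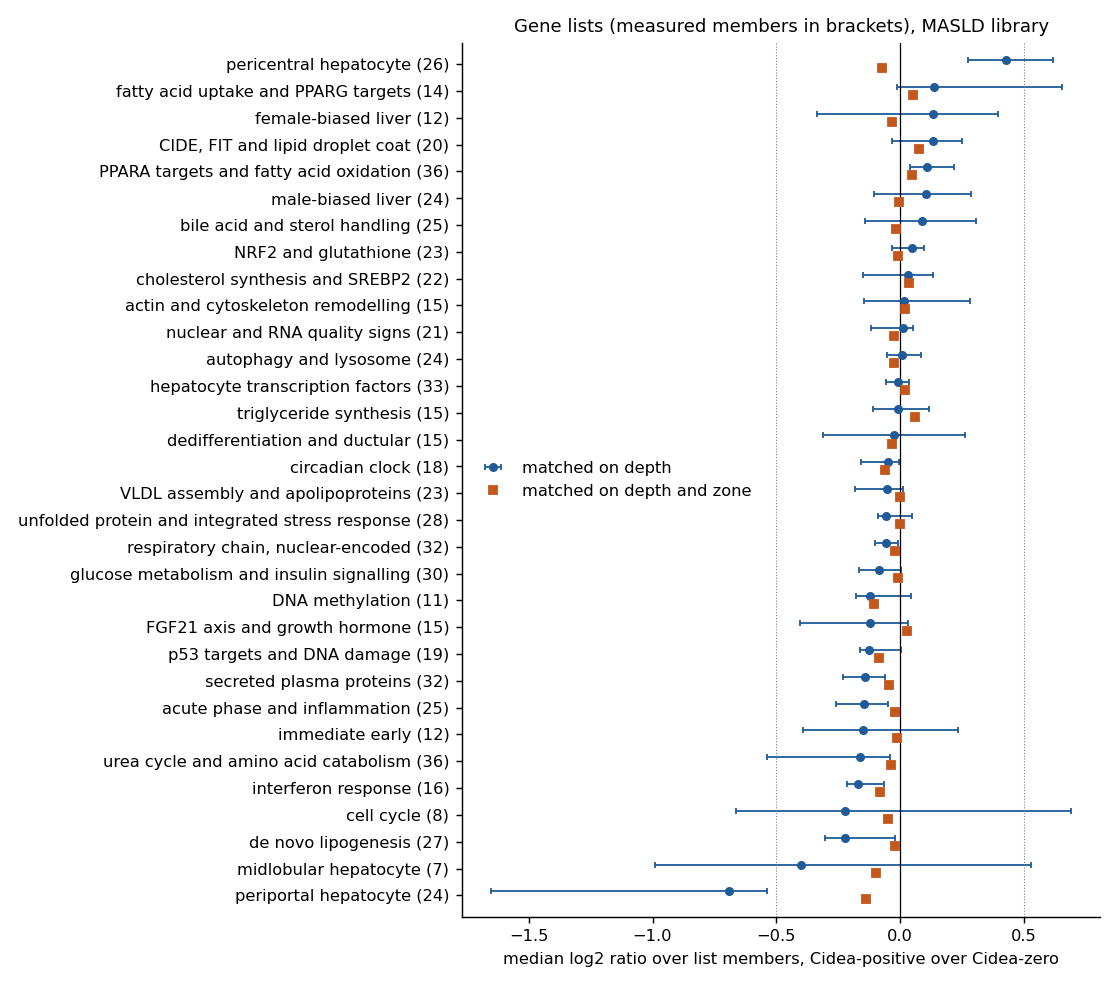
Median log2 ratio over the measured members of each gene list (Cidea-positive over Cidea-zero nuclei, circles, with order-statistic 95% intervals) and the same matched on zone decile (squares). The periportal and pericentral lists stand at -0.69 and 0.43, and the other lists shown lie between -0.40 and 0.14.

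In lists of this size the shares over all genes (1.43% and 2.46%) leave room for 1 or no gene, so counts of 0 show nothing particular to a list. No gene passed 0.5 in either direction in these lists: autophagy and lysosome (0 of 24), nuclear-encoded respiratory chain (0 of 32), p53 targets and DNA damage (0 of 19), interferon response (0 of 16), immediate early genes (0 of 12), DNA methylation (0 of 11) and RNA quality signs (0 of 21). Dnmt1, the gene of the series title, had 8.17 CPM in members and 9.27 CPM in Cidea-zero nuclei (-0.18, -0.63 to 0.24). Of 33 hepatocyte transcription factors, Esrrg and Nr1i3 (0.59), the xenobiotic receptor CAR, were higher; Ppara had 0.14. Alb was lower at -0.41 (3710 against 4918 CPM) and stood at -0.03 with zone matching, which partly sets it, since Alb is in the periportal list.

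With depth and zone deciles matched, 26 of the 83 named genes past 0.5 stayed past it on the same side. Next to Saa2, Saa1 and Spp1, the 12 highest held Slc24a3 (0.71, 0.38 to 1.03), a sodium-calcium exchanger, Mup18 (0.67), Chchd6 (0.59), a protein of mitochondrial cristae, Fam126a (0.55), Zfp992 (0.51), Rarres1 (0.50), Themis, Ehhadh (0.40, 0.33 to 0.47), a peroxisomal fatty acid oxidation enzyme, and Fbf1 (0.39). Ehhadh was not zonated (266 and 256 CPM in the pericentral and periportal tertiles of Cidea-zero nuclei), and its depth-matched ratio was 0.19 at 1 Cidea UMI and 0.65 at 2 or more. Of its 2371 UMIs in members, 5 nuclei carried 13.2%. The depth-matched ratio of 0.40 was 0.21 without them, with the Cidea-zero level kept whole. Besides the leukocyte genes, and Glul and Slc1a2, which are part of the zone score, the lowest included Tiam2, Setd7 (-1.40), a lysine methyltransferase, and Nemp1 (-0.99). This ranking was added after the depth-matched values had been seen.

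One transcript outside the naming rule, B430212C06Rik, is named after its values were seen: it lies on the opposite strand to Cidea and overlaps it by 500 bases. It had 29.1 CPM in members and 6.38 CPM in Cidea-zero nuclei, a log2 ratio of 2.19 (1.90 to 2.48) and 1.51 (1.2 to 1.82) with zone matching. Of the 339 nuclei with one of its UMIs, 41.0% (35.7 to 46.4) were Cidea-positive, where their depths gave 15.7%. The sources used here do not say whether the counting used strand, so reads from the shared stretch of the 2 genes cannot be told apart.

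The Aza-TdC library, which the rule did not use, was split in the same way and held 22 Cidea-positive nuclei. Its other-cell nuclei held no Cidea UMI (0 of 366), with an interval up to 2.62 CPM. The 0.584 CPM of its hepatocyte nuclei is therefore not shown to exceed that background. The same holds for SD (0.410 CPM, against 0 of 181 and up to 6.94 CPM). Of the 22 nuclei in the Aza-TdC library, 21 lay above the Cidea-zero median of the pericentral share, with a median of 41.8% against 15.5%. In its periportal, middle and pericentral tertiles, 1, 1 and 20 nuclei were positive, against 57, 257 and 512 in MASLD and 3, 2 and 8 in SD. Of the 13 SD nuclei, 9 lay above the Cidea-zero median. Of the 12 lowest genes of the MASLD split, 11 were lower in the positive nuclei of Aza-TdC with an interval that excluded the Cidea-zero level, and Arhgap15, at 0 UMIs, could not be told apart. The 12 together had 66 UMIs where Cidea-zero levels gave 361.5; Cyp2f2 had 3 UMIs (18.5 CPM, 3.81 to 53.9) against 346 CPM. Of the 12 highest, 7 were higher by the same measure and the other 5, each at 0 or 1 UMI, could not be told apart; together they had 184 UMIs against 57.2. Esrrg had 794 CPM (663 to 943) against 233 CPM, while Themis and Gnai1 had 1 UMI and Saa2, Mpped2 and Mup18 had none. From Cidea-zero levels, 1793 genes were expected at 20 or more UMIs in the 22 positive nuclei, which limits the set to abundant genes. Across these genes, the log2 ratios of the 2 libraries had a Pearson correlation of 0.70 and a Spearman correlation of 0.49. Genes are not independent replicates, and many of these share the zone axis.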

How the data were processed

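Nuclei from 120 mg of frozen liver per library were sorted by DAPI and read with 10x Genomics 3' chemistry (per the labels' protocols). The authors deposited unnormalized UMI counts for each gene and barcode, made by Cell Ranger 6.1.2 according to the matrix headers, per the file headers. The submitters' processing notes also name Seurat 4.4.0, mm10 and GRCm38, with no role. The sources used here do not say whether introns or strand entered the counting or whether free RNA or doublets were removed. No doublet caller was run; an alternative left out the deepest 5% of nuclei.

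Coordinates are from the GENCODE annotation of GRCm38, in which 32158 of 32285 features had an entry. Cidea UMIs were left out of the totals. The Cidea-zero level of a gene is the mean over 10 depth deciles weighted by the members' UMIs in each. Level intervals are exact Poisson or its standardized-rate form, share intervals Clopper-Pearson, and ratio intervals combine both levels' limits. CPM of different genes was not compared, since capture of nuclear RNA varies with gene length. The exception is the comparison of spread, which chose genes by a CPM like that of Cidea. The ratio code was tested on simulated data. Tables and figures were made with pandas 2.3.3, matplotlib 3.10.9, scipy 1.17.1 and numpy 2.4.6 under Python 3.11.15.

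Named genes were, ranked by whichever end of the interval lay closer to 0, the 12 genes most above and the 12 most below Cidea-zero nuclei, leaving out unnamed and mitochondrial transcripts, all measured lipid droplet genes, up to 4 members of each of 40 lists, and Fgf21, Klb, Dnmt1, Pparg, Ppara, Cd36, Scd1, Alb and the 9 filter genes. The members and lists were chosen with earlier results of these data known. Alternatives changed the depth bins, the Cidea threshold, the gene minimum, the filters and the matching; zone-decile matching, the split of the last zone decile by Glul, the values without the highest nuclei, the comparison with genes at the Cidea level (whose upper limit was moved from a wider one) and the removal of nuclei with immune UMIs were added after seeing the data. Some genes that the naming rule gives are not reported here. No sequence is shown.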

Additional observations from a re-analysis of the deposited data

Results flagged for a closer look

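Cidea UMIs were also found in MASLD barcodes that the comparisons left out. Barcodes over 5% mitochondrial UMIs had 48.2 CPM of Cidea (28.1 to 77.2), from 17 UMIs in 6 of 202 barcodes, 10 of them in 1 barcode; a count of 3 would be 8.51 CPM, and the SD library had no such barcode. Barcodes under the UMI minimum within the mitochondrial limit had 25.0 CPM (11.4 to 47.4), from 9 UMIs in 4 of 327 barcodes, 6 of them in 1 barcode, where a count of 3 would be 8.33 CPM and SD again had none. Nuclei between the hepatocyte and the other-cell limits had 18.2 CPM (9.09 to 32.6), in 8 of 126 nuclei, against 1.35 CPM in the 121 such SD nuclei.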

How the results depend on the processing

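No paired analysis was possible because each group has 1 library. The Cidea-positive share stayed within its interval under 5 alternatives to the filters and was 4.74% after thinning. The counts of higher and lower genes were 224 and 495 with at least 2 Cidea UMIs, 70 and 83 with a gene minimum of 1000 UMIs (6443 genes), 281 and 570 with a minimum of 100 (11836 genes), 30 and 99 with zone tertiles and 28 and 88 with zone deciles matched; under the other 9 alternatives they lay within 1.5 times the main counts. The lipid droplet median stayed within its interval under all 14 alternatives, and the periportal and pericentral medians under the 12 without zone matching, which sets them by construction (-0.14 and -0.07 with zone deciles). Of 83 named genes past 0.5, 26 kept that side with zone deciles matched and 32 with zone tertiles. Signs turned for Spp1 without depth matching (-0.035) and at 2 or more Cidea UMIs (-2.52). With zone tertiles matched they turned for Cyp2c50 (-0.041), Cyp2c54 (-0.0053), Cyp7a1 (-0.23), Igf1 (0.017) and Lgr5 (-0.17), and with zone deciles for Apoa4 (0.028), Cyp17a1 (0.20), Cyp7a1 (-0.21), Igf1 (0.063) and Lgr5 (-0.074). Each gene that turned with zone matching belongs to the periportal or the pericentral list. These lists define the zone score, so the matching partly sets such values. The cause of the Spp1 turns was not tested. Depth limits the split, since 503 of 826 members rest on 1 UMI.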

Other observations

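Of 24 measured male-biased liver genes, 4 were higher in Cidea-positive nuclei, Mup17 (0.83, 150.5 against 84.6 CPM), Mup11 (0.74), Slco1a1 and Cyp7b1, and 2 lower, Cyp2f2 and Serpina1e (-1.14), with a median of 0.11. Of 12 female-biased genes, none was higher and Cyp17a1 (-1.24) and Cyp2a4 (-0.77) were lower, with a median of 0.14. The shares over all genes were 1.43% higher and 2.46% lower. With zone matching 0 genes of either list passed 0.5 in either direction. Cyp2f2, Serpina1e and Cyp17a1 are in the periportal list of the zone score, so the matching partly sets their values. In members, 1 nucleus carried 90 of the 976 Mup17 UMIs. Close paralogs make the values of the Mup and Cyp2a genes uncertain. The cyclin-dependent kinase gene Cdk6 (0.69, 244 against 151 CPM) and Pfkfb3 (0.66), a regulator of glycolysis, were higher, while Ccnd1 had 7.25 against 11.5 CPM (-0.66). With zone matching Pfkfb3 stood at 0.18 (0.02 to 0.33), and neither Cdk6 nor Ccnd1 passed 0.5 in either direction. Tox, a transcription factor known from exhausted T cells, had 2058 against 1150 CPM (0.84) and, like Themis, was pericentral (2252 CPM against 127 CPM in the periportal tertile of Cidea-zero nuclei). Igf1 (-0.55) and the iron hormone Hamp (-0.54) were lower at matched depth. The sign of Igf1, a gene of the periportal list, turned with zone matching, as given above.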
